A study of Mus musculus with 24 samples.

Results

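The AP-1 transcription factors of the Fos and Jun families were followed in whole adrenal glands of mice over the projected circadian day. The 7 genes Fos, Fosb, Fosl1, Fosl2, Jun, Junb and Jund were taken by the gene symbols of the array platform, which gave 11 probe sets of the 45101 on the array, 6 for the Fos family and 5 for the Jun family. Of these, 9 probe sets of 6 genes were bright enough to be tested. Fosb 1422134_at and Jund 1440265_at had mean signals under the filter of 183 and are given as values only.

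AP-1 is a dimer of leucine zipper proteins that binds DNA. Proteins of the Fos family enter it only with a Jun partner, while Jun proteins also pair with each other and with factors of the ATF family. Fos, Fosb, Jun and Junb are immediate early genes, which are transcribed within minutes of a stimulus without new protein synthesis, and Jund is made more steadily in many cell types. In the adrenal gland, corticotropin raises several of them in cells of the cortex, and nerve input raises Fos in chromaffin cells of the medulla.

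The promoters of Jun, Junb and Fos are shown because these 3 genes had the largest differences between circadian times described below. Each line holds the 250 bases before the annotated start from RefSeq on build GRCm38.p6, in which 6 of the 7 genes were matched; Fosl1 was the other one. Jun lies on the minus strand at chr4:95052223-95052472, Junb on the minus strand at chr8:84978749-84978998 and Fos on the plus strand at chr12:85473640-85473889. Capitals mark motif matches.
Jun: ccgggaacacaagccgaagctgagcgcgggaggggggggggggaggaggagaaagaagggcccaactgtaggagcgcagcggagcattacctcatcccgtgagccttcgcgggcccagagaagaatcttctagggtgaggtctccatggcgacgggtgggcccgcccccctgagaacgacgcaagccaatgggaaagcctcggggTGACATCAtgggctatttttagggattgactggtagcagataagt
Junb: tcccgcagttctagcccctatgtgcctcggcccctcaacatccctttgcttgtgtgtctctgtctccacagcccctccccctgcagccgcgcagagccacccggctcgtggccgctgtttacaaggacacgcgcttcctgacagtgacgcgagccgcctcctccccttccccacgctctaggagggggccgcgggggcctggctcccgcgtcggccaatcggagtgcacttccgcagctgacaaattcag
Fos: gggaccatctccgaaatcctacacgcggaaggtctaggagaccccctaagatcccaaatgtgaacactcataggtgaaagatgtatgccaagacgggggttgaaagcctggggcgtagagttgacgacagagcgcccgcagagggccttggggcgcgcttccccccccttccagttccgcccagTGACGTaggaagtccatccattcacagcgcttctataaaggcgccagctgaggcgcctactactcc
The capitals in Jun mark TGACATCA at positions -45 to -38 from the start, the sequence known as the jun1 element, which dimers of Jun and ATF2 bind. Those in Fos mark TGACGT at -66 to -61, the core of the cyclic AMP response element through which CREB acts. On either strand, TGACATCA was found in 2.93% and TGACGT in 6.47% of 32851 promoters of this length. The classical AP-1 site TGANTCA (6.75% of promoters), the full cyclic AMP element TGACGTCA (1.55%), the E-box CACGTG (6.02%), the D-box TTATGTAA (0.819%) and the CArG box (1.47%) had no match in any of the 6 windows. TGACGTCA also contains TGACGT.

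Transcripts were measured on Affymetrix mouse arrays in 3-month-old male C57B/6J mice, all labelled wild type. The mice were held for 2 weeks under 12 h of light alternating with 12 h of darkness and then killed in constant darkness. Glands were taken 38 to 82 h after lights off at 12 time points spaced by 4 h, and each time point has 2 arrays. Projected circadian time is these hours minus 12, modulo 24, so that a value of 2 lies early in the projected day and 14 to 22 in the projected night. Circadian times 10 and 18 (46, 54, 70 and 78 h) make up the second array set, and circadian times 2, 6, 14 and 22 the first. In 6 pairs of arrays the values were near-copies, with an SD of the log2 ratio of 0.042 at most, against 0.217 to 0.516 in 30 other pairs of equal circadian time. The arrays of 5 pairs came from time points 24 h apart, and those of the sixth were the 2 arrays of 70 h. Each pair was averaged and counted once, which left 18 profiles, 3 at each circadian time. Whether arrays hold separate animals or pools is not stated in the labels, so p-values measure the spread between these profiles, which may be technical. The precision is limited by the number of arrays.

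The array sets also differed in RNA measures and in transcripts of other tissues. The 5' to 3' ratio of Gapdh signal was 0.0386 to 0.978 on the 8 arrays of the second set and 1.03 to 1.15 on the 16 of the first, with the lowest value in 78 h replicate 2. All 8 skeletal muscle markers were measured and 2 of them tested. Their summed signal ran from 802.4 to 33635.6 in the second set and from 594.9 to 888.0 in the first, with Myh4, Tnnt3 and Mylpf as low as 0 in single profiles. In 4 of the 6 profiles of the second set Acta1, the skeletal muscle actin, read over 1000. The 7 measured liver markers of 8 summed to between 2534.2 and 22379.0 in the second set and between 2256.7 and 6696.9 in the first. The 8 markers of the adrenal cortex were bright in every profile, with sums of 61135.4 to 75092.3 and 73676.1 to 78376.3 in the second and first sets, and the 5 measured of 6 medulla markers with 32056.7 to 39565.3 and 32798.8 to 41578.1. The 4 measured fat markers of 6 were bright too, with 33858.0 to 41719.4 in the second set and 32323.0 to 41949.8 in the first. In the same order the 3 measured blood markers of 4 gave 821.2 to 1724.0 and 636.6 to 855.0, 5 kidney markers 1050.8 to 1707.5 and 2014.1 to 2364.6, 4 endothelial markers 4568.0 to 5565.7 and 5998.0 to 7553.8, and 4 leukocyte markers 11055.8 to 13336.2 and 7466.2 to 12611.4. The part of these differences in the results below was not tested, except where values without the arrays in question are given.

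Jun and Junb were the members with the clearest difference over the day. Jun was high from circadian time 2 to 14 and low at 18 and 22, and it passed the test within each array set. Junb was 4.64-fold lower at circadian time 18 than at 10 on the scale used. It passed within the second set but not the first, a contrast between the sets that was not itself tested. Fos had its highest mean at circadian time 2 and its lowest at 22 in the first set, and a higher mean at 10 than at 18 in the second. Its replicates spread widely, and it passed in neither set. Its signals of 2209.9 and 2273.4 at circadian time 10 came from profiles with an Acta1 signal over 1000, and the third profile read 728.7. Fosl1, Fosl2 and Jund varied by much less.

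Tests were made with limma on log2(signal + 51), with p-values adjusted over all 27022 tested probe sets by Benjamini-Hochberg and a threshold of 0.05. Differences and levels below are on this scale, which understates changes of dim probe sets. Within the first set, 3 of the 9 tested probe sets of the families differed between circadian times, against 8.54% of all probe sets tested. Within the second set, 4 of 9 were lower at circadian time 18 than at 10 and 0 higher, against 5.54% of all called, 2.56% lower and 2.98% higher. A 24 h cosine fitted over both sets, with the array set as a term, passed for 5 of 9, against 16.0%. The median difference between circadian times 18 and 10 was -0.32 over the 9 probe sets and -0.01 over all, and 8 of the 9 lay below 0. Some markers of cell types also differed between circadian times 18 and 10. Of 5 tested medulla markers 2 were called, Th and Pnmt, higher at circadian time 18 by 0.54 ± 0.12 and 0.98 ± 0.22 (SE, adjusted p = 0.0489 and 0.0445). Of 4 tested endothelial markers 1 was called, Pecam1, which fell by 1.07 ± 0.16 (adjusted p = 0.0133). The sums of both lists overlapped. For the medulla they were 32214.1 to 39565.3 at 18 and 32056.7 to 34719.8 at 10, and for endothelium 4568.0 to 5542.1 and 5473.8 to 5565.7. The liver sum was 9314.1, 2879.0 and 22379.0 at circadian time 18, against 2534.2 to 3343.8 at 10, and the muscle sum 1083.5 to 33635.6 against 802.4 to 11373.7. Their part in the members' differences was not tested. In whole glands, less RNA per cell and fewer cells of the type that makes it cannot be told apart.

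**Figure D1:**
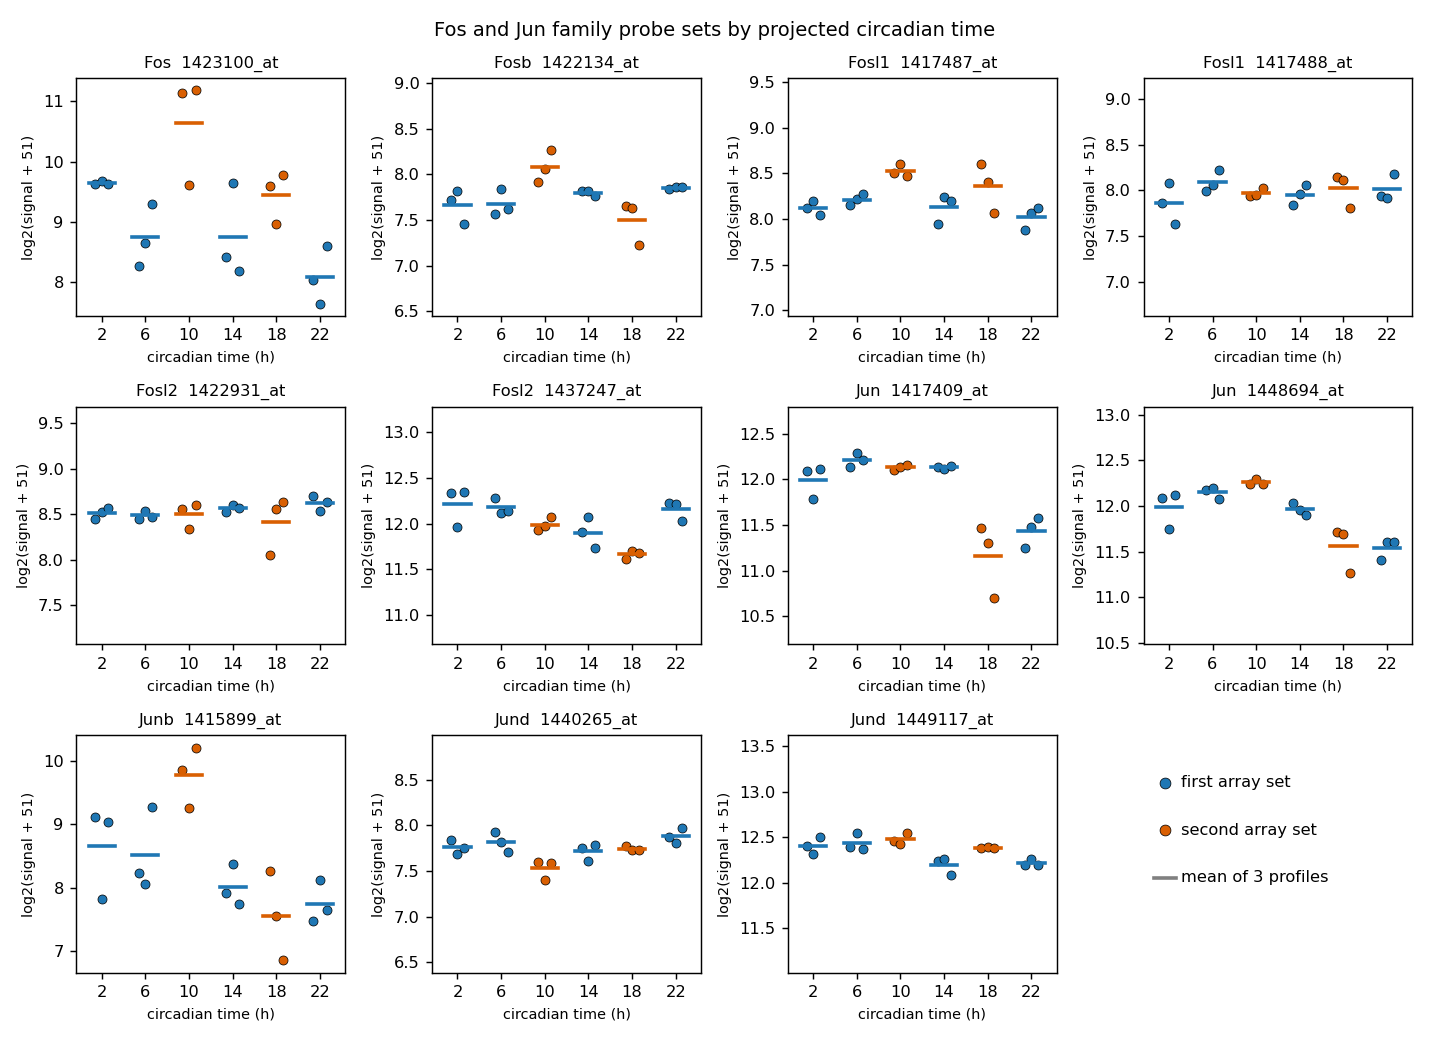
Each panel shows a probe set, with log2(signal + 51) on the vertical axis and projected circadian time in hours on the horizontal axis. Points are single profiles, bars are means of 3 profiles, blue is the first array set and orange the second. Both Jun panels drop at circadian times 18 and 22, and the points of Fos and Junb are widely scattered within single times.

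Jun encodes c-Jun, the founding member of its family and a strong activator when phosphorylated by the JNK kinases. On Jun 1448694_at the signals were 4298.4, 3389.7 and 4392.8 at circadian time 2, 4583.4, 4637.9 and 4283.7 at 6, 4780.1, 4991.1 and 4787.8 at 10, and 4117.4, 3932.3 and 3763.6 at 14. They were 3289.4, 3247.5 and 2420.8 at circadian time 18 and 2673.8, 3067.9 and 3067.8 at 22. The 6 profiles of the late projected night, at 18 and 22, thus read below the 12 others. This split also held within each array set. On Jun 1417409_at the same split was seen, with 1608.9 to 2776.9 at circadian time 18 and 2385.2 to 3014.1 at 22, and all other profiles between 3478.5 and 4948.1.

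Within the first set Jun 1417409_at ranked from circadian time 6 (mean 12.21 ± 0.07, SD, n = 3) through 14 (12.13 ± 0.02) and 2 (11.99 ± 0.18) to 22 (11.44 ± 0.17). The test of any difference gave an adjusted p of 0.00147 for this probe set and of 0.00707 for Jun 1448694_at (limma). Circadian time 22 was lower than 6 by 0.78 ± 0.09 (SE) on the first and by 0.61 ± 0.09 on the other (adjusted p = 0.00156 and 0.00445), against 3.37% of all probe sets called in that pair and 1.72% called lower. It was also lower than 14, by 0.70 ± 0.09 and 0.42 ± 0.09 (adjusted p = 0.00355 and 0.0288; 3.25% of all called, 2.14% lower). Against circadian time 2 the difference was -0.56 ± 0.09 (adjusted p = 0.0493; 0.130% of all called, 0.0740% lower) on Jun 1417409_at and -0.44 ± 0.09 (adjusted p = 0.0755) on Jun 1448694_at. Neighbours in that order did not differ past the threshold among circadian times 2, 6 and 14, where adjusted p-values of Jun ran from 0.242 to 0.914. No member was called between circadian times 6 and 2 (2 at an unadjusted p under 0.05; limma, 0.440% of all called) or between 14 and 2 (3 unadjusted; 6.87% of all called).

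In the second set, Jun 1417409_at averaged 11.15 ± 0.40 at circadian time 18 and 12.13 ± 0.03 at 10, a difference of -0.98 ± 0.18 (SE) or 1.97-fold (limma, adjusted p = 0.0255). Jun 1448694_at averaged 11.55 ± 0.25 at 18 and 12.26 ± 0.03 at 10, a difference of -0.70 ± 0.12 or 1.63-fold (adjusted p = 0.0206). The groups did not overlap on either probe set. Lack of overlap between groups of 3 profiles is weak support, since Jund showed it here without passing the test. Its share among all tested probe sets is not given here. The lowest signals at circadian time 18 came from 78 h replicate 2, the array with the low Gapdh ratio, and without it the differences were -0.75 and -0.56 (adjusted p = 0.00396 and 0.00553). Without 1 of the 3 profiles of circadian time 10 the sizes stayed at -0.962 to -0.995 and -0.684 to -0.715, but the adjusted p rose to 0.112 to 0.122 and 0.101 to 0.112. The profiles left out were 46 h replicate 1, 46 h replicate 2 and the average of both 70 h arrays.

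The cosine fit placed the peak of Jun at circadian time 8.85 on Jun 1417409_at and 8.18 on Jun 1448694_at. Amplitudes, from the fitted mean to the peak, were 0.52 ± 0.06 and 0.38 ± 0.05 (SE, n = 18 profiles), or peak-to-trough ratios of 2.05 and 1.69 (limma, adjusted p = 0.000152 and 0.000135). Without the 4 profiles with an Acta1 signal over 1000 the amplitudes were 0.47 and 0.35 (adjusted p = 0.000606 and 0.00139). A cosine within the first set alone gave 0.46 and 0.35 (limma, adjusted p = 0.00305 and 0.00593). The fit without those 4 profiles kept a single profile each of circadian times 10 and 18, so it rests mostly on the first set. The part of muscle transcripts in the difference within the second set was not tested. Both probe sets passed the cosine fit over both sets under all 29 and 30 other settings tried.

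Junb encodes a Jun protein that activates less strongly than c-Jun and can restrain it. Its signals were 506.0, 174.2 and 476.0 at circadian time 2, 249.1, 214.8 and 565.3 at 6, 870.9, 564.2 and 1124.7 at 10, and 191.3, 280.4 and 164.4 at 14. They were 254.8, 137.2 and 65.1 at circadian time 18 and 128.0, 226.9 and 149.2 at 22. The 2 highest of all 18 profiles were from circadian time 10 and thus from the second set. At circadian times 2 and 6 single profiles stood apart from the others of their time.

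Junb averaged 7.56 ± 0.70 at circadian time 18 and 9.77 ± 0.47 at 10 (SD, n = 3 each), a difference of -2.21 ± 0.36 (SE), without overlap (limma, adjusted p = 0.0175). Its size depends on the number added before the logarithm and was -2.63 with 1 and -1.57 with a number 4 times larger (adjusted p = 0.0268 and 0.0124). At circadian time 18, signals of 137.2 and 65.1 lay below the level of 183 that the filter asks of a mean. Without 78 h replicate 2 the difference was -1.86 (adjusted p = 0.0104). Leaving out 46 h replicate 1, 46 h replicate 2 or the average of both 70 h arrays gave -2.17, -2.47 and -2.00, with adjusted p-values of 0.0982, 0.0509 and 0.0964. Means in the first set ran from 8.66 ± 0.73 at circadian time 2 through 8.52 ± 0.66 at 6 and 8.01 ± 0.32 at 14 to 7.75 ± 0.33 at 22. These levels overlapped in every pair of times, and the test of any difference did not pass (adjusted p = 0.278). The cosine fit gave an amplitude of 0.89 ± 0.19, with the peak 3.45 times the trough and at 6.96 h of circadian time (adjusted p = 0.0113). Without the 4 profiles rich in muscle transcripts it no longer passed, with an amplitude of 0.63 (adjusted p = 0.0938). That fit kept a single profile each of circadian times 10 and 18, the times of the called difference. The part of muscle transcripts in the loss of the call was not tested.

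Jund encodes the Jun protein that is most steadily expressed and that menin binds. Jund 1449117_at read 5340.4, 5028.2 and 5732.3 at circadian time 2, 5304.1, 5941.7 and 5252.3 at 6, 5580.3, 5424.9 and 5966.5 at 10, and 4775.9, 4838.4 and 4284.1 at 14. It read 5267.4, 5325.0 and 5296.4 at 18 and 4620.1, 4849.1 and 4607.0 at 22. Its highest profile was only 1.39 times its lowest. Within the first set the 6 profiles of circadian times 14 and 22 lay below those of 2 and 6.

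The small difference of Jund passed the test of any difference in the first set (adjusted p = 0.0457), but was lost in 14 of 22 other settings, among them 11 that left out a single profile. Without 38 h replicate 1, for example, its adjusted p was 0.0917, the highest of these. By pairs, Jund was lower at circadian time 14 than at 6 by 0.24 ± 0.06 (adjusted p = 0.0389; 7.54% of all probe sets called, 3.06% lower). At circadian time 18 it averaged 12.38 ± 0.01, against 12.48 ± 0.07 at 10, a difference of -0.09 ± 0.06 that did not pass (adjusted p = 0.439) although the groups did not overlap. The cosine fit of Jund peaked at 4.85 h of circadian time and passed (amplitude 0.14 ± 0.03, adjusted p = 0.0105). It did not pass without a term for the array set (adjusted p = 0.184). The dim probe set Jund 1440265_at read 117.9 to 199.1 and was not tested.

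Fos encodes c-Fos, whose transcript appears and decays within an hour or so of a stimulus. Its signals were 742.4, 760.8 and 743.3 at circadian time 2, 258.5, 349.6 and 579.5 at 6, 2209.9, 728.7 and 2273.4 at 10, and 291.8, 749.6 and 240.6 at 14. They were 719.7, 450.0 and 819.6 at circadian time 18 and 210.2, 148.2 and 333.5 at 22. The replicates of circadian time 2 lay close together, while at circadian times 10 and 14 a single profile stood far from the other 2.

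Fos averaged 9.64 ± 0.02 at circadian time 2, 8.74 ± 0.52 at 6, 8.75 ± 0.78 at 14 and 8.08 ± 0.48 at 22 in the first set. The test of any difference gave an adjusted p of 0.0692. It passed when the average of 50 h replicate 1 and 74 h replicate 2 (adjusted p = 0.0224) or 82 h replicate 1 (adjusted p = 0.0436) was left out. The pair with the largest difference, circadian time 22 minus 2, gave -1.56 ± 0.36 without overlap (adjusted p = 0.104). In the second set Fos averaged 9.44 ± 0.42 at circadian time 18 and 10.64 ± 0.90 at 10, a difference of -1.20 ± 0.42 (adjusted p = 0.143). It was -1.72 (adjusted p = 0.0425) without 46 h replicate 2. The cosine fit did not pass (amplitude 0.58 ± 0.22, peak at circadian time 6.5, adjusted p = 0.154).

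The second set allows the Fos signal to be read beside the muscle markers. At circadian time 18 the summed muscle signal was 33635.6, 1083.5 and 8281.3 in the profiles where Fos read 719.7, 450.0 and 819.6. At circadian time 10 it was 10874.0, 802.4 and 11373.7 in the profiles where Fos read 2209.9, 728.7 and 2273.4. At both times the profile lowest in muscle transcripts was lowest in Fos, and also lowest in the liver sum, with 2879.0 at 18 and 2534.2 at 10. The profile with the highest muscle sum of all, at circadian time 18, was lower in Fos than another of its time. The part of muscle or liver transcripts in the Fos signal was not tested. In the 2 profiles of this set with an Acta1 signal under 1000, Fos read 450.0 at circadian time 18 and 728.7 at 10, Junb 137.2 and 564.2, and Jun 1448694_at 3247.5 and 4991.1. These are single profiles and allow no test.

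**Figure D2:**
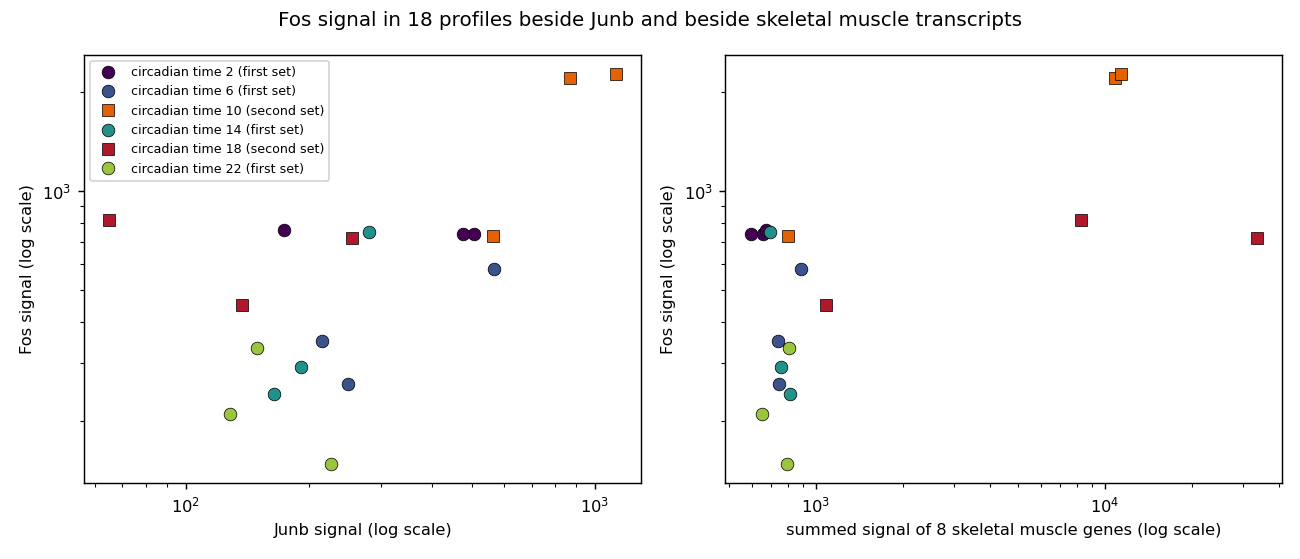
Each point is 1 of 18 profiles, with the Fos signal on the vertical axis of both panels, the Junb signal on the left horizontal axis and the summed signal of 8 skeletal muscle markers on the right one, all on log scales; circles are the first array set and squares the second. The 2 profiles highest in Fos (2209.9 and 2273.4) are from circadian time 10 and have muscle sums of 10874.0 and 11373.7, while all circles lie at muscle sums of 594.9 to 888.0.

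The difference between the array sets, which cannot be told apart from the difference between circadian times 10 and 18 and the other 4, was called for 3 of 9 member probe sets, against 48.3% of all. That share is below the background. Fos averaged 10.04 ± 0.91 in the second set (n = 6) and 8.80 ± 0.73 in the first (n = 12), a difference of 1.24 ± 0.36 (limma, adjusted p = 0.0077). Without the 4 profiles with high Acta1 it was 0.48 (adjusted p = 0.46). Fosl1 1417487_at was 0.32 ± 0.07 higher in the second set (adjusted p = 0.00162; 0.38 and 0.00537 without those profiles). Fosl2 1437247_at was lower by 0.29 ± 0.09 (adjusted p = 0.00968; -0.28 and 0.0997 without them).

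Fosl2 encodes Fra-2, a Fos protein without the strong activation domain of c-Fos. Fosl2 1437247_at read 5146.8, 3937.2 and 5168.5 at circadian time 2, 4918.1, 4394.7 and 4476.7 at 6, 3845.7, 3948.6 and 4246.4 at 10, and 3809.8, 4246.5 and 3346.9 at 14. It read 3066.7, 3284.9 and 3227.3 at 18 and 4757.6, 4708.5 and 4130.2 at 22. Within the second set the 3 profiles of circadian time 18 lay below those of 10. At circadian time 18 the mean was 11.66 ± 0.05, against 11.99 ± 0.07 at 10, a difference of -0.32 ± 0.08 or 1.25-fold (limma, adjusted p = 0.0493).

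This call of Fosl2 lay at the threshold and was lost in 8 of 16 other settings, with an adjusted p of up to 0.307. Without the average of 54 h replicate 1 and 78 h replicate 1 it was -0.30 (adjusted p = 0.0986), and without any single profile of circadian time 10 the adjusted p was 0.166 to 0.195. In the first set Fosl2 1437247_at did not pass (adjusted p = 0.204), and its cosine, with a peak at 4.1 h of circadian time, had an amplitude of 0.19 ± 0.05 (adjusted p = 0.0322; 0.0906 without the 4 profiles rich in muscle transcripts). That call was lost in 9 of 30 other settings, with the highest adjusted p without 74 h replicate 1 (0.107, amplitude 0.15). The dimmer probe set Fosl2 1422931_at, with signals of 214.1 to 365.5, did not pass in the first set (adjusted p = 0.451) or between circadian times 18 and 10 (-0.08 ± 0.17, adjusted p = 0.832). The probe sets of this gene thus gave different calls.

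Fosl1 encodes Fra-1, the other Fos protein that lacks the activation domain. Fosl1 1417487_at read 185.4 to 338.2 and Fosl1 1417488_at 147.0 to 247.1 over the 18 profiles. Neither passed within the first set (adjusted p = 0.54 and 0.53), within the second (0.571 and 0.887) or in the cosine fit (0.268 and 0.978). For circadian time 18 minus 10 the differences were -0.17 ± 0.15 and 0.04 ± 0.13. Fosb, which like Fos is induced by neural activity, read 149.4, 147.7 and 99.3 at circadian time 18 and 191.8, 215.9 and 257.9 at 10. Its 3 profiles of circadian time 10 lay above those of 18 in the same set, at levels where the probe set was too dim to be tested.

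**Figure D3:**
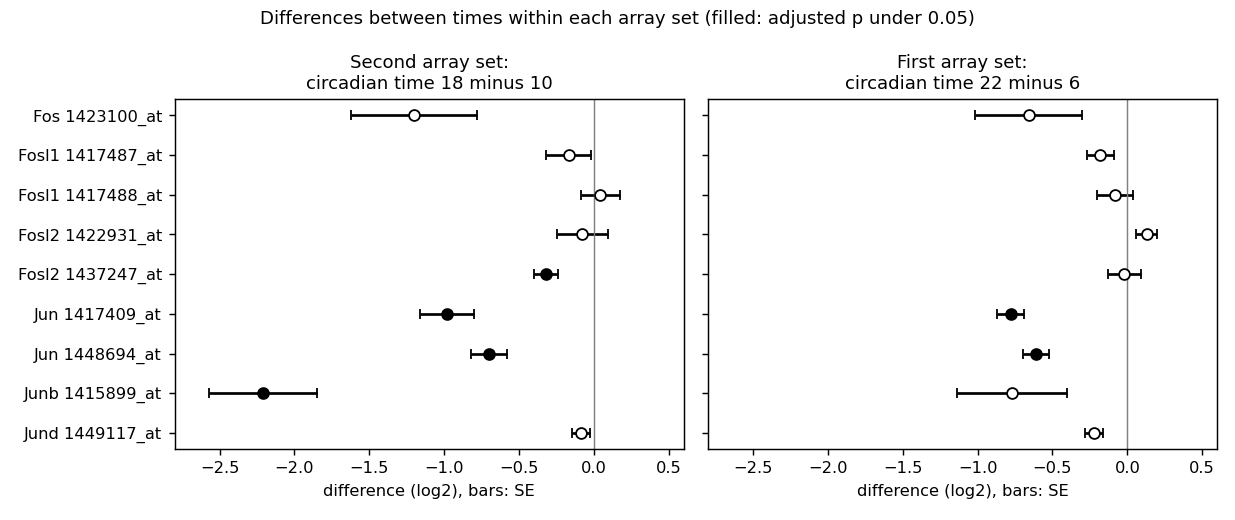
Differences on the log2 scale with SE bars are shown for the 9 tested probe sets, on the left for circadian time 18 minus 10 in the second array set and on the right for 22 minus 6 in the first; filled points have an adjusted p under 0.05. Junb reaches -2.21 on the left and -0.77 on the right, where it did not pass, and both Jun probe sets are filled in both panels.

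The members differed in how far replicates of a single circadian time spread. The pooled SD within circadian times was 0.59 for Fos and 0.56 for Junb, above 99.4% and 99.3% of the tested probe sets, whose median was 0.133 and whose 95th percentile was 0.325. Jund 1449117_at had 0.08, above 8.87% of them. Jun lay between, with 0.20 and 0.14. Both sets showed the wide spread of Fos, with 0.70 in the second and 0.53 in the first, and of Junb, with 0.60 and 0.54, where all tested probe sets had medians of 0.158 and 0.106.

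**Figure D4:**
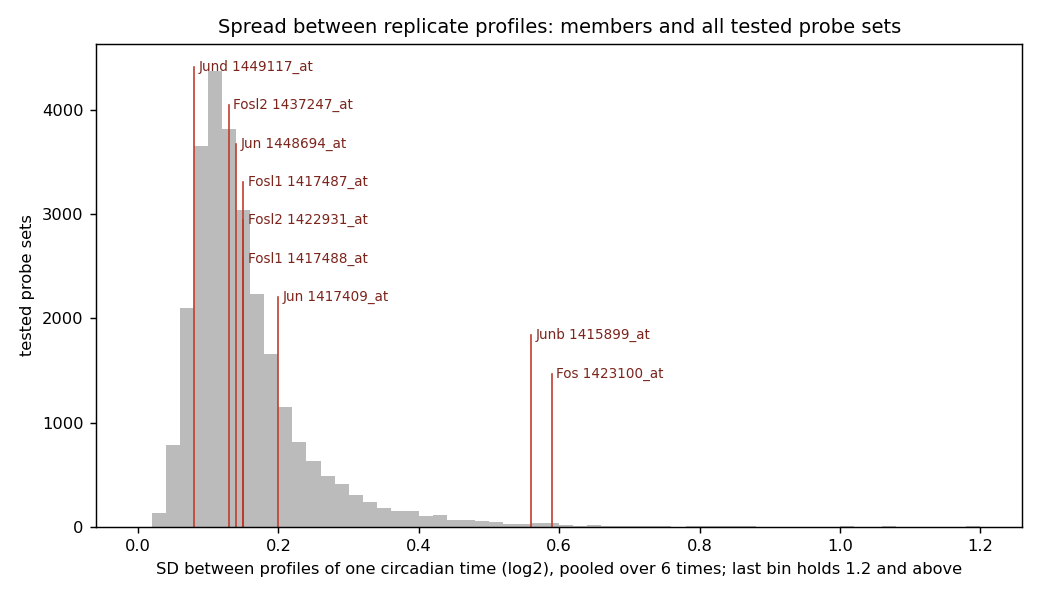
The histogram counts the 27022 tested probe sets by their SD between profiles of a single circadian time (log2, pooled over 6 times), and red lines mark the 9 tested member probe sets. Fos (0.59) and Junb (0.56) stand in the upper tail, beyond the 95th percentile of 0.325, and Jund 1449117_at (0.08) lies near the lower end.

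Over the 18 profiles, after the mean of each array set was subtracted, Junb correlated with both Jun probe sets (Pearson r = 0.81 and 0.82) and with Fos (0.67), and the Jun probe sets with each other (0.98). These correlations describe profiles that share circadian time and array. After the mean of each circadian time was subtracted, Junb and Jun gave 0.63 and 0.57, Junb and Fos 0.39, and Fos and Jun -0.09 and -0.23. In 78 h replicate 2, the array with the low Gapdh ratio, Junb read 65.1 and the Jun probe sets 1608.9 and 2420.8. Each was the lowest of all 18 profiles. The part of that array in these correlations was not tested. For Fosl2 1437247_at the values with the mean of the array set subtracted were 0.66 with Junb and 0.65 with Jund 1449117_at, and with the mean of the circadian time subtracted 0.46 and 0.58.

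The genes whose profiles were most like those of the members over the 18 profiles, after the mean of the array set was subtracted, were for Fos Dusp1 (Pearson r = 0.84), Hsd3b1 (0.827), Mxd4 (0.778), Mapk6 (0.766) and Arid1a (0.765). Dusp1, a phosphatase that switches off MAP kinases, gave 0.822 with Fos after the mean of the circadian time was subtracted. Hsd3b1, Mxd4, Mapk6 and Arid1a then gave lower values of 0.662, 0.559, 0.62 and 0.384. The genes were picked over the same 18 profiles, so these values are no independent support. Hsd3b1 was nearly flat, with signals of 12282.0 to 13443.3. For Junb they were Gadd45b (0.924), Eef2k (0.911), Sin3a (0.909), Pdgfb (0.906) and Pim1 (0.9), and for Jun 1448694_at Cygb (0.953), Pbx3 (0.952), Pim3 (0.941), Tbc1d9b (0.94) and Rbbp7 (0.934). Gadd45b, a stress-induced gene, read 396.5 to 2183.9, and Pim1 and Pim3 encode related kinases.

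Among other immediate early genes, 10 of 29 tested probe sets, of 6 of 17 genes, were lower at circadian time 18 than at 10 and 0 were higher, against 2.56% of all probe sets called lower. The median difference was -0.57, against -0.01 over all, and 25 of the 29 lay below 0. Nr4a1, an orphan nuclear receptor induced by corticotropin, averaged 11.75 ± 0.22 at circadian time 18 and 13.00 ± 0.11 at 10 (SD, n = 3 each; limma, adjusted p = 0.00498). Sik1, a kinase that restrains CREB coactivators, averaged 8.19 ± 0.21 at 18 and 9.75 ± 0.31 at 10 (adjusted p = 0.00768), and Ccn1, a secreted matrix protein gene, 8.12 ± 0.04 and 9.06 ± 0.11 (adjusted p = 0.00721). Nr4a2, a relative of Nr4a1, averaged 7.86 ± 0.37 at 18 and 9.83 ± 0.43 at 10 on Nr4a2 1455034_at (adjusted p = 0.00952). Of its 5 tested probe sets 3 were called. Without 46 h replicate 1 or the average of both 70 h arrays limma called 0 of the 29 (15 and 14 at an unadjusted p under 0.05), with medians of -0.46 and -0.45, and 6 without 46 h replicate 2. Without 78 h replicate 2 it called 10. Btg2 and Klf4, named here after their values were seen, were the other 2 genes called with all profiles.

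Within the first set 4 of these 29 probe sets differed between circadian times, against 8.54% of all. Ier5 was highest at circadian time 2 (10.06 ± 0.08) and lowest at 14 (9.51 ± 0.02; limma, adjusted p = 0.011). Btg2 1448272_at, an antiproliferative gene, was highest at circadian time 6 (10.20 ± 0.15) and lowest at 22 (9.61 ± 0.21; adjusted p = 0.0461), while Klf6, a zinc finger factor, was highest at 14 on both called probe sets. The cosine fit passed for 19 probe sets of 12 genes, against 16.0%.

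Among genes that damp AP-1 activity or break its members down, 3 of 17 tested probe sets were lower at circadian time 18 than at 10 and 0 higher, against 2.56% and 2.98% of all, with a median of -0.21. The median was 0.03 without 78 h replicate 2, with 3 called. Without 46 h replicate 1 or the average of both 70 h arrays limma called 0 (4 and 5 at an unadjusted p under 0.05), and 1 without 46 h replicate 2 or the average of 54 h replicate 1 and 78 h replicate 1. Dusp1 averaged 10.50 ± 0.08 at circadian time 18 and 11.37 ± 0.33 at 10, a difference of -0.87 ± 0.16 (SE; limma, adjusted p = 0.0264). Fbxw7, the ubiquitin ligase subunit that marks c-Jun for breakdown, differed by -0.57 ± 0.12 on Fbxw7 1451558_at (adjusted p = 0.0386). Its other tested probe set gave -0.487 and was not called (adjusted p = 0.146). Zfp36l2, which hastens the decay of AU-rich transcripts, differed by -0.47 ± 0.10 on Zfp36l2 1437626_at (adjusted p = 0.0417). Its other tested probe sets gave 0.312 and 0.062 and were not called (adjusted p = 0.383 and 0.82), so the direction was not shared within this gene. In the first set 3 of 17 were called, against 8.54% of all. Dusp1 was highest at circadian time 2 (11.21 ± 0.16) and lowest at 22 (10.66 ± 0.09; adjusted p = 0.0394). Men1, which encodes the JunD partner menin, was highest at 14 (10.22 ± 0.13) and lowest at 6 (8.91 ± 0.17) on Men1 1443826_x_at, a probe set marked for cross-hybridization (adjusted p = 0.000253). Men1 1416348_at spanned 0.32 between the same highest time and circadian time 22 (adjusted p = 0.0495).

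Dimer partners from other leucine zipper families were also set beside the members. Of their 25 tested probe sets, of 14 genes, limma called 0 between circadian times 18 and 10 (6 at an unadjusted p under 0.05), with a median of -0.05. In the first set 2 of 25 were called, a share near the 8.54% of all. They were Batf3, which pairs with Jun proteins, and Mafg 1434054_at, of a small Maf protein gene whose other tested probe set was not called. Both were highest at circadian time 14, with 9.01 ± 0.05 for Batf3 and 8.94 ± 0.09 for Mafg, and lowest at 2, with 8.52 ± 0.02 and 8.38 ± 0.23 (adjusted p = 0.00243 and 0.017). Of 35 tested probe sets of kinases and factors upstream of Fos and Jun, 1 was lower at circadian time 18 than at 10, a share near the 2.56% of all, with a median of -0.04. It was Map2k4 1426233_at, of a kinase that activates JNK, with 8.81 ± 0.33 at 18 and 9.54 ± 0.06 at 10 (adjusted p = 0.0498). The other tested probe set of Map2k4 gave -0.08 and was not called (adjusted p = 0.734). Leaving out any single profile other than 54 h replicate 2 left 0 calls among the 35 (limma; 2 to 6 at an unadjusted p under 0.05). In the first set 2 of the 35 were called, a share below the 8.54% of all. Elk3 1448797_at, of a partner of serum response factor, was highest at circadian time 2 and lowest at 14 (adjusted p = 0.0195). Mapk14 1416703_at, of the p38 alpha kinase gene, was highest at 14 and lowest at 6 (adjusted p = 0.0249). Other tested probe sets of both genes were not called.

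Genes with known AP-1 sites showed no common direction. Of 21 tested probe sets 1 was lower and 1 higher at circadian time 18 than at 10, near the 2.56% and 2.98% of all, with a median of 0.03. Without 46 h replicate 1, 46 h replicate 2 or the average of both 70 h arrays limma called 0 (3, 4 and 4 at an unadjusted p under 0.05). Hmox1, heme oxygenase, averaged 9.79 ± 0.47 at 18 and 11.26 ± 0.15 at 10 (limma, adjusted p = 0.014). Th, the rate-limiting enzyme of catecholamine synthesis and a marker of the medulla here, averaged 12.48 ± 0.24 at 18 and 11.95 ± 0.12 at 10 (adjusted p = 0.0489). Of the 21, 3 were called in the first set (8.54% of all), both probe sets of Cd44, the hyaluronan receptor (adjusted p = 0.013 and 0.0451), and Plaur, the urokinase receptor (0.0405). Cd44 1434376_at was highest at circadian time 14 (10.91 ± 0.26) and lowest at 6 (10.02 ± 0.15).

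**Figure D5:**
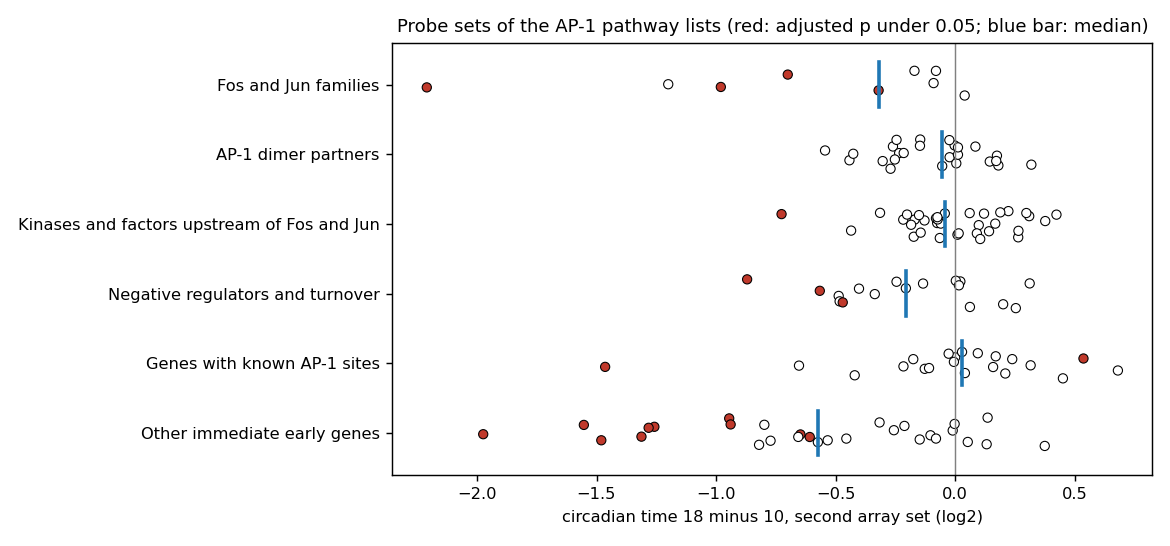
Each point is a tested probe set of the Fos and Jun families or of a list of related genes, placed by its difference between circadian times 18 and 10 in the second array set (log2); red points have an adjusted p under 0.05 and blue bars are medians. The medians are -0.32 for the families and -0.57 for other immediate early genes, and between -0.21 and 0.03 for the other lists.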

How the data were processed

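The authors deposited 1 table with a linear intensity for each probe set on 24 arrays. The methods that summarised and scaled it are not given in the sources used here. Medians of the arrays lay between 8.14 and 8.32 (log2), so no further normalization was applied. Near-copies were pairs of arrays in which the lower value was at least 95% of the higher in every probe set with a signal of 50 or more, a rule set after the data were seen. Analysis used log2(signal + 51), where 51 is the 10th percentile of all values. Of 45037 probe sets that were not controls, 27022 with a mean at or above the 40th percentile were tested. Of the 45037 probe sets that were not controls, 34945 had 1 gene symbol and 932 several, from which none was named. Of all 45101 probe sets, controls among them, 9211 were unlisted. Fits used limma 3.58.1 (lmFit, eBayes with trend) in R 4.3.3. They were also run on simulated data with independent noise and planted changes, which hold no faults of single arrays. The outcome of that run is not given here. The members, the lists of related genes and the markers were chosen with earlier results of these data known. The genes named were all members, up to 4 probe sets with the lowest p of each list in each within-set test, and the 5 most correlated genes. Alternatives covered the offset, filter, normalization, probe sets, near-copies, a replicate block and single profiles; fits without 78 h replicate 2 over both sets were added after the data were seen.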

Additional observations from a re-analysis of the deposited data

How the results depend on the processing

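No called member changed sign under any setting tried; differences near 0 did, such as Jun 1448694_at between the array sets (0.125 without 78 h replicate 2). Over all probe sets, the first-set test called 1454 with 1 probe set per gene and 8387 with all 24 arrays taken as separate, against 2307. The comparison of circadian times 18 and 10 called 773 without a filter, 834 with 1 probe set per gene and 5560 with 24 arrays, against 1497, and 2 of the member probe sets without a filter. The cosine fit called 2482 with 1 probe set per gene, 8581 with 24 arrays and 2749 without a term for the array set, against 4319, and the difference between sets 6567 with 1 probe set per gene, against 13053. With fewer rows or repeated near-copies, counts change by construction. Without the 4 profiles with high Acta1, 3 member probe sets of 9 passed the cosine fit, against 3203 of all 27022. The difference between sets was called for 1 of 9, against 9575 of all 27022. This setting was not run within the second set, where 2 profiles remained. Leaving out single profiles gave 1022 to 2823 calls in the first set (members 2 to 3), 0 to 2827 in the second (members 0 to 4), 2924 to 4633 for the cosine (members 4 to 5) and 11988 to 13526 between the sets (members 3 to 4). The 0 came without the average of both 70 h arrays (limma; 4734 at an unadjusted p under 0.05), and 0 members were called without 46 h replicate 1 (4 unadjusted). With the replicate number as a replicate block, 2 probe sets and 0 members differed between circadian times 18 and 10 (3708 and 4 unadjusted). Junb then gave -1.86 (limma, adjusted p = 0.161), and Fos passed in the first set (adjusted p = 0.0117). Averages over both replicate numbers formed a block level of their own. In the second set that level held only the average of both 70 h arrays, which thus did not enter the comparison of 18 and 10. The numbers name samples only: deviations of equally numbered arrays correlated over 0.1 in 18 of 55 pairs of time points (median 0.038). The causes were not tested. With 3 profiles per circadian time, small differences may be missed.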
